A study of Mus musculus with 8 samples.

Results

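The MHC class II presentation genes are 10 genes chosen by name: the classical chains H2-Aa, H2-Ab1 and H2-Eb1, the invariant chain Cd74, the transactivator Ciita, the peptide-exchange genes H2-DMa, H2-DMb1 and H2-DMb2, and the genes H2-Oa and H2-Ob of their inhibitor. Each matched 1 row of the 54532 genes in the count table, and all 10 were among the 17138 genes that passed the filter on low counts. RNA was sequenced from whole lungs of 8 CC-LR mice, with 1 library per mouse, 4 labelled Control and 4 labelled TTI-101. The study describes lungs frozen for RNA as coming from mice whose airways were first lavaged and whose lungs were then perfused with PBS. Part of the airway and blood cells may therefore be missing from the values. Mice of both groups carried a mutant K-ras allele (LSL-K-rasG12D) switched on by Cre from the club cell secretory protein locus (CCSP-Cre), on a C57BL/6 background, so that the oncogene is expressed in airway and lung epithelium and lung tumours form in the controls too. The treated group received TTI-101, a small-molecule inhibitor of STAT3, for 4 weeks, and lungs were taken at 14 weeks of age. What the control mice of this experiment received and the route of TTI-101 in the sequenced mice were not given in the sources used here. The comparison asks whether the transcripts of class II presentation differ in whole lung after STAT3 inhibition, and whether the classical chains behave like H2-Ob and H2-DMb2, which are enriched in B cells.

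MHC class II molecules are pairs of an alpha and a beta chain that carry peptides from endocytosed proteins to the cell surface, where CD4 T cells read them. In the endoplasmic reticulum the invariant chain fills the peptide groove, and in late endosomes the DM heterodimer removes its last fragment and lets peptides compete for the groove. The DO heterodimer binds DM and holds it back, chiefly in B cells, while Ciita is the master switch that recruits the transcription machinery to class II promoters. In the lung, class II is known from dendritic cells, B cells, macrophages and alveolar type 2 cells, so a whole-lung value sums over several cell types.

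On the mouse build GRCm38, 8 of the 10 genes lie within the class II region of chromosome 17, between 34092340 and 34316199. Promoters of this family share short conserved boxes, named X and Y, at which the class II transcription factors assemble. Promoter windows of RefSeq on GRCm38.p6, from 250 bases before to 50 bases after each transcript start, were at hand for 7 of the 10 genes (8 windows of 300 bases). Windows for H2-Ab1, Cd74 and Ciita were not used here. The 250 upstream bases were searched on both strands for X box letters (AACNNATGA) and Y box letters (TGATTGG), which can share at most the letters TGA and were chosen after the sequences had been seen. The X letters occurred in 2.49% and the Y letters in 7.23% of all 32851 promoter windows. An X followed by a Y within 40 bases, without overlap and on the strand of the gene, occurred in 7 windows of all 32851 (0.0213%), and these included H2-Ob, H2-DMb2, H2-Eb1 and H2-DMb1, beside BC051142, Bscl2 and Gm34733. The stretches of 63 bases that follow are shown because they set the B cell enriched H2-Ob and H2-DMb2 beside 2 of the classical chains. Capitals mark the X and Y letters, each stretch runs 5′ to 3′ on the strand of the gene, and the positions are on GRCm38.p6.
H2-Ob (chr17:34238796-34238858, plus strand): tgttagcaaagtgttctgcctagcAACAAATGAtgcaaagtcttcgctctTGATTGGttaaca
H2-DMb2 (chr17:34145107-34145169, plus strand): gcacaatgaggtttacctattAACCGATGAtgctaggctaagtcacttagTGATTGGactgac
H2-Eb1 (chr17:34305756-34305818, plus strand): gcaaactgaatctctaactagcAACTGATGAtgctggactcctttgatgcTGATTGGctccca
H2-Aa (chr17:34287861-34287923, minus strand): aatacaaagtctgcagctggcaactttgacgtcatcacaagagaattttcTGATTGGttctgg
The Y letters began 59 bases before the transcript start in H2-Ob, 92 in H2-DMb2, 61 in H2-Eb1 and 50 in H2-Aa. Between the X and Y letters lay 17 bases in H2-Ob, 20 in H2-DMb2 and 19 in H2-Eb1, whereas H2-Aa held the Y letters without these X letters. H2-Oa also held the Y letters, and the 2 windows of H2-DMa, at RefSeq starts upstream of the gene start in the count table, held neither set of letters, which says only that these letters are not in those windows. The H2-DMb2 stretch lies inside the span of that gene in the count table (34143307 to 34151553), and the other stretches lie upstream of their genes. H2-Ob and H2-Eb1, whose log2 fold changes between the groups were 1.02 and 0.05, both carry the X and Y letters. A link between the letters and these values was not tested.

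Control libraries held 16446481 to 26873509 counts and TTI-101 libraries 16075855 to 25920509. Levels are given in CPM, the counts of a gene brought to one sequencing depth by TMM scaling, and the groups were compared by the quasi-likelihood F-test of edgeR, adjusted after Benjamini and Hochberg for all 17138 genes. Lung genes were abundant in every library, with the type 2 cell gene Sftpc at 16673 CPM or more and the type 1 cell gene Ager at 913 CPM or more. Control mouse 4 stood apart: it lay at 101 on the first principal component (45.2% of the variance), where the other 7 mice lay between -39.3 and 17.9, and 5.56% of its counts were mitochondrial against 2.01% to 2.85% in the others. Mice 1 and 2 of each group had Xist at 400 to 450 CPM and mice 3 and 4 at 2.11 CPM or less, so both groups held 2 mice of each kind.

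None of the 10 class II genes changed at an adjusted p under 0.05 by edgeR, DESeq2 or limma-voom, and edgeR called 0% of all genes at that threshold. The smallest adjusted p was 0.657 among the 10 genes and 0.105 among all genes by edgeR's quasi-likelihood test. At an unadjusted p under 0.05, 2 of the 10 genes, H2-Ob and H2-DMb2, were higher in treated lungs, where 3.02% of all genes were higher. None of the 10 was lower, where 3.58% of all genes were lower. Without control mouse 2, TTI-101 mouse 1 or TTI-101 mouse 3, 1 of the 10 (H2-Ob) was higher. In those fits 2.99%, 2.27% and 1.03% of all genes were higher. Without control mouse 1 or TTI-101 mouse 2, 3 were higher, with H2-Oa added, where 7.15% and 6.63% of all genes were higher. DESeq2's Wald test also put H2-Ob and H2-DMb2 under an unadjusted p of 0.05, with 2.63% of the 31769 genes it tested higher. That set had no filter on low counts, so its share is not over the same genes as those of edgeR. No gene of the 10 had all treated mice above all control mice, which held for 1.53% of all genes, and none had all treated mice below all control mice, which held for 1.43%. The median log2 fold change of the 10 genes was 0.01 and that of all genes tested 0.00, with 5 of the 10 genes above 0 and 5 below. In a bulk sample, fewer cells of a type and less RNA per cell cannot be told apart, and this holds for every value that follows.

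**Figure D1:**
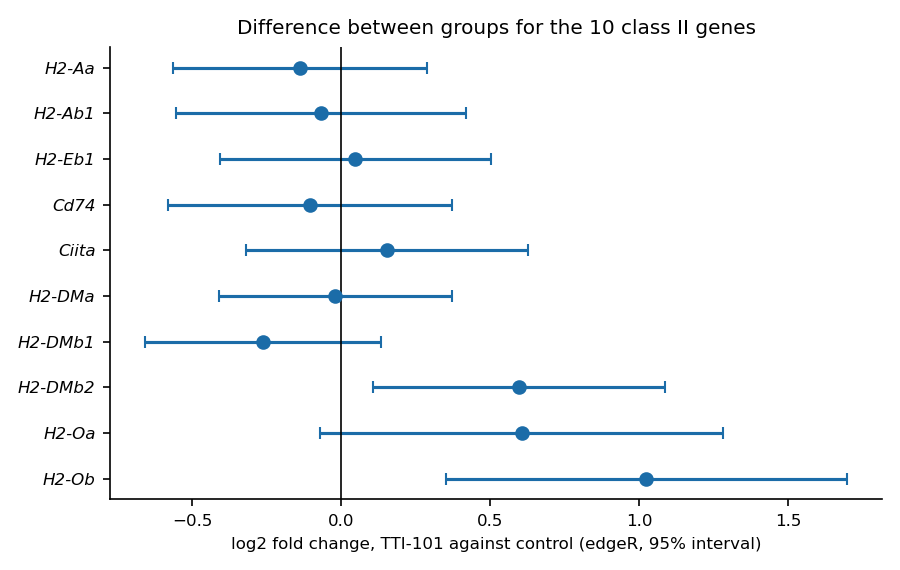
Log2 fold change of TTI-101 over control (x axis) for each of the 10 class II genes (y axis), as points with 95% intervals from edgeR's quasi-likelihood fit to 4 mice per group. The intervals of H2-DMb2 (0.11 to 1.09) and H2-Ob (0.35 to 1.70) lie above 0, and those of the other 8 genes include 0.

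The order of the genes was nearly the same in every lung when CPM was divided by gene length. Cd74 was the highest in all 8 mice, at a mean of 1641 CPM per kb in control and 1526 in treated lungs. The 3 classical chains came next, followed by H2-DMb1, H2-DMa, H2-DMb2 and H2-Ob in this order in all 8 mice. H2-Oa and Ciita were the lowest, with H2-Oa above Ciita in 7 of 8 mice and the reverse in control mouse 4. H2-Eb1 (392 ± 59.8 in control and 405 ± 94.5 in treated lungs, CPM per kb, SD, n = 4) was the highest classical chain in 7 mice and H2-Ab1 in control mouse 3, while their means lay within 1 SD of each other. The 10 genes together took 0.352% to 0.469% of the counts in control and 0.305% to 0.502% in treated lungs, with overlapping ranges.

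The classical chains did not differ between the groups beyond the spread between mice. H2-Aa (ENSMUSG00000036594, chromosome 17, 34282744 to 34287827), the alpha chain of I-A, measured 723, 479, 656 and 679 CPM in control mice 1 to 4 and 632, 652, 590 and 432 CPM in TTI-101 mice 1 to 4. The lowest and the highest of the 8 values were a treated mouse (mouse 4) and a control mouse (mouse 1), with the other mice intermixed. The means were 634 ± 107 CPM in control and 577 ± 99.6 CPM in treated lungs (SD, n = 4), which is -0.14 as a log2 fold change (SE, the standard error, 0.19, 95% interval -0.56 to 0.29, edgeR adjusted p = 0.837). H2-Ab1 (ENSMUSG00000073421, 34263209 to 34269418), the beta chain that pairs with it, measured 580, 463, 670 and 619 CPM in control and 482, 732, 626 and 385 CPM in treated mice. Treated mice held both the highest value (mouse 2) and the lowest (mouse 4). The log2 fold change was -0.07 (SE 0.22, 95% interval -0.55 to 0.42, edgeR adjusted p = 0.938). H2-Eb1 (ENSMUSG00000060586, 34305877 to 34316199), the beta chain of I-E, measured 542, 370, 474 and 468 CPM in control and 486, 592, 512 and 325 CPM in treated mice. Its log2 fold change was 0.05 (SE 0.21, 95% interval -0.41 to 0.50, edgeR adjusted p = 0.957), and treated mice again held the highest and the lowest value. The pseudogene row of the I-E alpha chain, which C57BL/6 mice do not express, had 0 counts in all 8 libraries. In fold terms the intervals ran from 0.677 to 1.22 for H2-Aa, from 0.682 to 1.34 for H2-Ab1 and from 0.754 to 1.42 for H2-Eb1, so that folds between these bounds remain possible with 4 mice per group.

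Cd74 (ENSMUSG00000024610, chromosome 18, 60803848 to 60812646), which encodes the invariant chain, followed the same pattern. It measured 2445, 1927, 2629 and 2256 CPM in control and 1928, 2746, 2365 and 1568 CPM in treated mice. As for H2-Ab1, treated mouse 2 was the highest and treated mouse 4 the lowest of the 8. The log2 fold change was -0.11 (SE 0.21, 95% interval -0.58 to 0.37, edgeR adjusted p = 0.893). The ratio of Cd74 to H2-Ab1 per length was 4.63 ± 0.304 in control and 4.53 ± 0.184 in treated lungs (SD, n = 4), with ranges that overlapped. With the group means taken out, Cd74 and H2-Ab1 had a Pearson's r of 0.98 over the 8 mice and H2-Aa and H2-Eb1 one of 0.94. These are descriptions over mice whose libraries share 1 scaling.

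Ciita (ENSMUSG00000022504, chromosome 16, 10480059 to 10528418), the transactivator, measured 53.0, 26.2, 39.8 and 46.4 CPM in control and 52.6, 36.7, 46.3 and 48.5 CPM in treated mice. Every treated value lay inside the range of the controls. The log2 fold change was 0.15 (SE 0.21, 95% interval -0.32 to 0.63, edgeR adjusted p = 0.835). Within groups, Ciita had an r of 0.81 with H2-DMb2, 0.60 with H2-Ob and 0.39 with H2-Oa. With the classical chains its r was 0.50 for H2-Aa, 0.24 for H2-Eb1 and 0.01 for H2-Ab1. It was 0.48 with H2-DMb1, 0.01 with Cd74 and -0.10 with H2-DMa. The opposite strand of the Ciita locus holds Dexi over 53.5% of its span (444 to 837 counts per library), and whether the counting used strand was not given in the sources used here, so the Ciita values may hold reads of both genes.

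**Figure D2:**
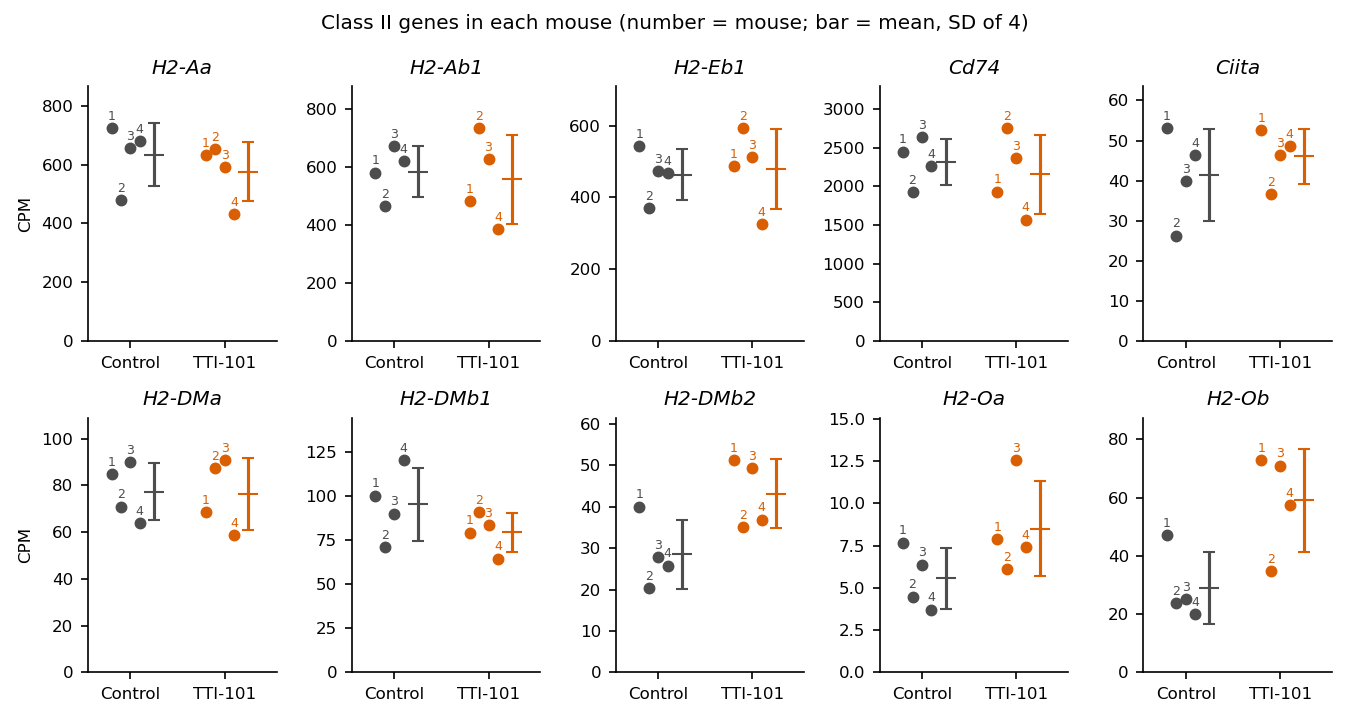
CPM (y axis, from 0) of each class II gene in control (grey) and TTI-101 (orange) mice, with 1 point per mouse numbered within its group and bars for the mean and SD of 4 mice. The groups are intermixed for the classical chains, Cd74, Ciita, H2-DMa and H2-DMb1, whereas 3 of 4 treated mice for H2-Ob and 2 of 4 for H2-DMb2 and H2-Oa lie above every control mouse.

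The DM genes split. H2-DMa (ENSMUSG00000037649, 34135182 to 34139101), the alpha chain of DM, measured 84.7, 70.9, 89.9 and 63.8 CPM in control and 68.4, 87.4, 90.9 and 58.6 CPM in treated mice. The groups overlapped almost fully, with a log2 fold change of -0.02 (SE 0.18, 95% interval -0.41 to 0.37, edgeR adjusted p = 0.981). H2-DMb1 (ENSMUSG00000079547, 34153072 to 34160230), one of the duplicated DM beta chains, measured 100, 70.8, 89.8 and 120 CPM in control and 79.1, 90.8, 83.2 and 64.3 CPM in treated mice. No treated mouse exceeded the control mean of 95.2 ± 20.6 CPM (SD, n = 4), but 3 of them lay within the control range. The log2 fold change was -0.26 (SE 0.18, 95% interval -0.66 to 0.13, edgeR unadjusted p = 0.170, adjusted p = 0.680), and without control mouse 4 it was -0.12.

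H2-DMb2 (ENSMUSG00000037548, 34143307 to 34151553), the other DM beta chain, measured 40.025, 20.4, 27.8 and 25.8 CPM in control and 51.3, 35.1, 49.3 and 36.9 CPM in treated mice. All 4 treated mice lay above the control mean, and treated mice 1 and 3 lay above every control, while control mouse 1 lay above treated mice 2 and 4. The means were 28.5 ± 8.30 and 43.1 ± 8.30 CPM (SD, n = 4), a 1.51-fold higher value in treated lungs (95% interval 1.08 to 2.12) with a log2 fold change of 0.60 (SE 0.22). The unadjusted p was 0.0214 and the adjusted p 0.657 from edgeR, and the two-sided exact permutation test over 70 assignments gave p = 0.0857. Without control mouse 4 the log2 fold change was 0.56 (edgeR, unadjusted p = 0.0420), but the gene no longer passed the unadjusted threshold without control mouse 2 (unadjusted p = 0.0582), without TTI-101 mouse 1 (unadjusted p = 0.0652) or without TTI-101 mouse 3 (unadjusted p = 0.0594). The 2 beta chain genes are near copies in the same cluster, so reads could be shared between them and both values are uncertain to that extent. The ratio of H2-DMb1 to H2-DMb2 per length was 2.88, 4.00, 3.72 and 5.37 in control and 1.78, 2.98, 1.95 and 2.01 in treated mice. H2-DMb1 was thus the more abundant beta chain in every lung, by less in 3 of the 4 treated mice than in any control.

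H2-Ob (ENSMUSG00000041538, 34238903 to 34245907), the beta chain of DO, had the largest difference of the 10 genes. It measured 47.2, 23.7, 25.1 and 19.9 CPM in control and 73.0, 34.8, 71.0 and 57.4 CPM in treated mice. Treated mice 1, 3 and 4 lay above every control, and treated mouse 2 lay above controls 2, 3 and 4 but below control 1. The means were 29.0 ± 12.3 and 59.1 ± 17.6 CPM (SD, n = 4), a 2.03-fold higher value (95% interval 1.27 to 3.24) with a log2 fold change of 1.02 (SE 0.30). The unadjusted p was 0.00674 and the adjusted p 0.657 from edgeR, so the difference did not pass the correction over all genes, and the two-sided exact permutation test gave p = 0.0571, where the smallest value 4 against 4 mice can give is 0.0286. With each library left out in turn the log2 fold change stayed between 0.89 and 1.37 with an unadjusted p under 0.05 in all 8 fits, and the value without control mouse 4 was 0.89.

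H2-Oa (ENSMUSG00000024334, 34092340 to 34095234), the alpha chain of DO, was low, with 58 to 226 counts per library. It measured 7.67, 4.48, 6.38 and 3.71 CPM in control and 7.88, 6.12, 12.6 and 7.42 CPM in treated mice. All 4 treated mice lay above the control mean, and 2 lay above every control. The log2 fold change was 0.61 (SE 0.30, 95% interval -0.07 to 1.28, edgeR unadjusted p = 0.0738, adjusted p = 0.657), which missed the unadjusted threshold although its size was close to that of H2-DMb2. It passed that threshold without control mouse 1 (0.81, edgeR unadjusted p = 0.0307) or TTI-101 mouse 2 (0.74, unadjusted p = 0.0382), fits in which 7.15% and 6.63% of all genes were higher. Its log2 fold change was 0.46 without control mouse 4 and 0.36 without TTI-101 mouse 3. An antisense gene, BC051537, covers the whole H2-Oa locus with 0 to 5 counts per library.

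Each mouse's classical chains were then set beside its H2-Ob and H2-DMb2, as the mean log2 CPM of H2-Ob and H2-DMb2 minus that of H2-Aa, H2-Ab1 and H2-Eb1. This difference was -3.81, -4.30, -4.48 and -4.68 in control and -3.11, -4.23, -3.28 and -3.04 in treated mice, so 3 of the 4 treated mice lay above every control. Its mean was -4.32 ± 0.37 in control and -3.41 ± 0.55 in treated lungs (SD, n = 4), 0.90 higher on the log2 scale, and 0.78 higher without control mouse 4. The mean of the classical chains was 9.10 ± 0.23 in control and 9.03 ± 0.34 in treated lungs, and that of H2-Ob and H2-DMb2 was 4.79 ± 0.45 and 5.62 ± 0.37. In CPM the difference between the groups therefore lay on the side of H2-Ob and H2-DMb2, as a description for which no p is given. This depends on the scaling, since relative to Ptprc, which encodes the leukocyte antigen CD45, the log2 differences were -0.68 for H2-Aa, -0.64 for H2-Ab1 and -0.51 for H2-Eb1 against 0.51 for H2-Ob and 0.08 for H2-DMb2, so that most of it then lay on the side of the classical chains. Ptprc itself measured 207, 105, 114 and 72.3 CPM in control and 221, 89.4, 164 and 246 CPM in treated mice. Its own differences between mice therefore enter all of these values. Per length, H2-Ob stood at 0.0263 ± 0.0115 of H2-Ab1 in control and 0.0599 ± 0.0251 in treated lungs (SD, n = 4), and the value of treated mouse 2 (0.0247) was inside the range of the controls. H2-Ob relative to H2-DMa, the DM chain that DO acts beside, was 0.290, 0.174, 0.145 and 0.162 in control and 0.555, 0.207, 0.407 and 0.510 in treated mice.

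**Figure D3:**
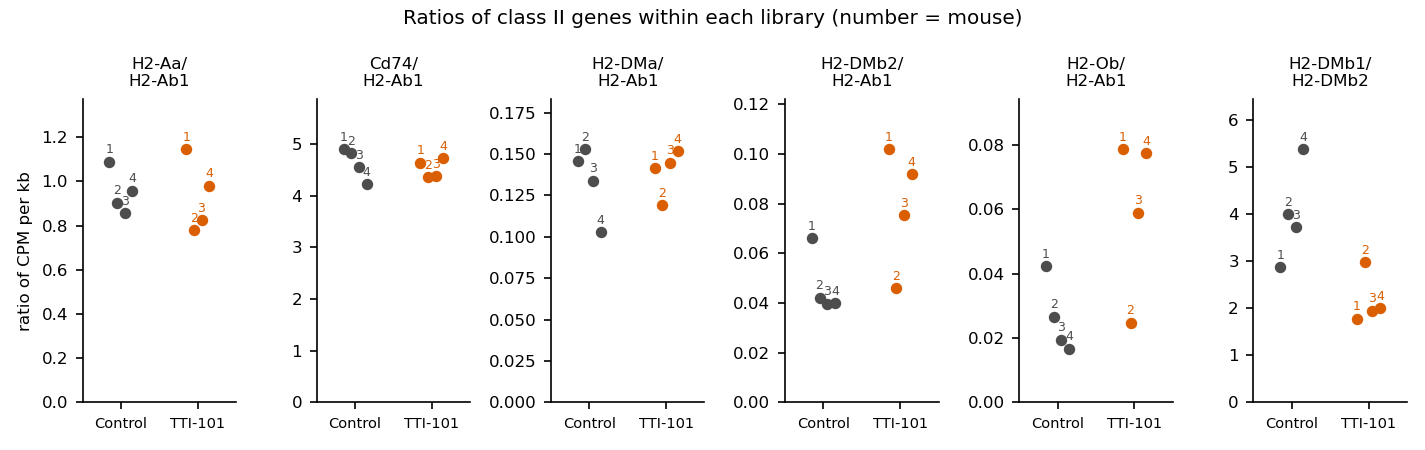
Ratios of CPM per kb between pairs of class II genes within each library (y axes, from 0), with 1 numbered point per control (grey) and TTI-101 (orange) mouse. H2-Aa, Cd74 and H2-DMa over H2-Ab1 overlap between the groups, while H2-DMb2 and H2-Ob over H2-Ab1 are higher, and H2-DMb1 over H2-DMb2 lower, in treated mice 1, 3 and 4 than in every control mouse.

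The genes also differed in their pattern over mice within the groups. With group means taken out, H2-Ob had an r of 0.84 with H2-DMb2 and of 0.80 with H2-Oa over the 8 mice, and H2-DMb2 one of 0.74 with H2-Oa. H2-Ob had an r of -0.30 with H2-Ab1, of -0.18 with Cd74 and of 0.13 with H2-Aa. H2-DMb1, by contrast, went with the classical chains, with an r of 0.86 with H2-Aa and of -0.14 with H2-Ob. The separation was incomplete, since H2-DMb2 had an r of 0.62 with H2-Aa and 0.50 with H2-Eb1, and H2-Oa one of 0.60 with H2-DMa. Treated mouse 2, the highest of all for H2-Ab1, H2-Eb1 and Cd74, was the lowest treated mouse for H2-Ob, H2-DMb2 and H2-Oa, and treated mouse 4 was the lowest of all for the classical chains and Cd74.

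**Figure D4:**
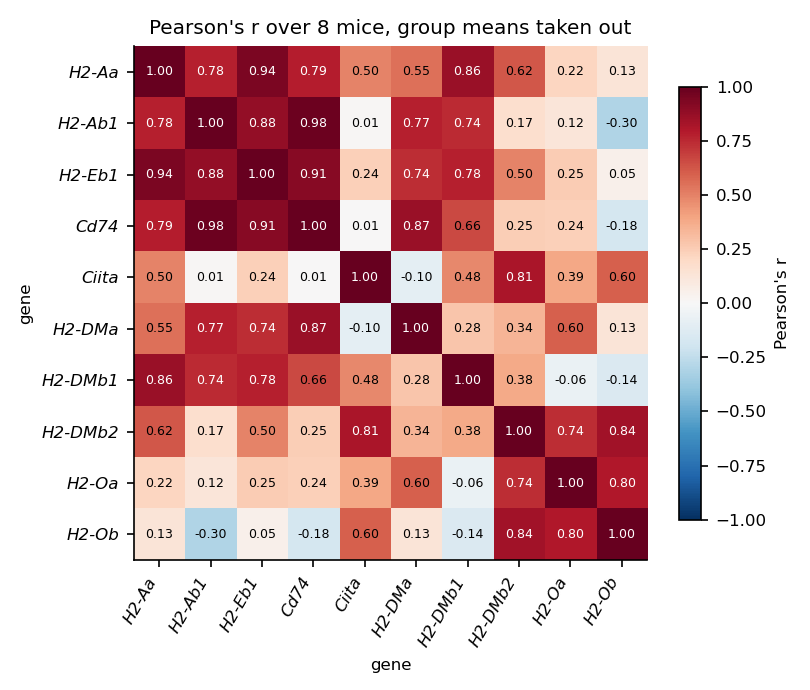
Pearson's r between each pair of class II genes (both axes, colour from -1 to 1) over 8 mice, from log2 CPM with the mean of each group taken out. H2-Aa, H2-Ab1, H2-Eb1 and Cd74 form a block with r of 0.78 or more, and H2-DMb2, H2-Oa and H2-Ob another with r of 0.74 or more.

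Markers of the cells that carry class II were set beside these values. Of 19 B cell genes, 17 were higher in treated lungs at an unadjusted p under 0.05 by edgeR and 0 were lower, against the 3.02% of all genes higher, although none passed an adjusted p of 0.05. Their median log2 fold change was 1.19. Their summed level was 246 to 795 CPM in control and 1035 to 1313 CPM in treated lungs, a lack of overlap that rested on Ighm, the heavy chain of IgM, since without it the sums were 207 to 576 CPM and 468 to 972 CPM. Of the 19 genes, 14 had 3 treated mice above every control, 2 had 2 such mice, 1 had none and 2 had all 4, the last of which 1.53% of all genes did. With each library left out in turn, 12 to 18 of the 19 genes were higher at that threshold (14 without control mouse 4), and 1 was lower without control mouse 1, while 1.03% to 7.15% of all genes were higher in those fits. Cd79a, Ighm, Blk and Cxcr5 were among the genes of this list that were singled out in the study from the same libraries, so the count is not independent of that choice. Ms4a1, which encodes CD20, measured 36.3, 11.5, 12.6 and 4.41 CPM in control and 68.4, 18.5, 57.4 and 48.2 CPM in treated mice, with a log2 fold change of 1.56 (edgeR unadjusted p = 0.0197). Cd79a, a signalling chain of the B cell receptor, measured 50.5, 34.6, 39.9 and 17.1 CPM in control and 95.5, 60.6, 120 and 79.4 CPM in treated mice. Its log2 fold change was 1.32, and it and Ighm, with 1.78, were the B cell markers whose groups did not overlap.

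The sum of the 18 B cell genes other than Ighm, a sum taken after the data had been seen, was 576, 321, 338 and 207 CPM in control mice 1 to 4 and 932, 468, 972 and 793 CPM in TTI-101 mice 1 to 4. Control mouse 1, which had the highest H2-Ob, H2-DMb2 and H2-Oa of the controls, was also the control with the highest sum, and control mouse 4, with the lowest H2-Ob and H2-Oa, was the one with the lowest. Treated mouse 2, the only treated mouse with an H2-Ob below that of control mouse 1, was also the only one with a sum below that of control mouse 1. Ighm by itself was 659 CPM in treated mouse 2 and 327, 341 and 243 CPM in treated mice 1, 3 and 4. Relative to Ptprc, H2-Ob was 0.51 higher on the log2 scale (two-sided exact permutation test, p = 0.0571), H2-DMb2 0.08 higher (p = 0.8) and H2-Oa 0.08 higher (p = 0.857). On the same scale Cd74 was at -0.67, H2-DMa at -0.57, H2-DMb1 at -0.79 and Ciita at -0.35, and the two-sided exact permutation p of these genes and the classical chains ran from 0.229 to 0.457.

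**Figure D5:**
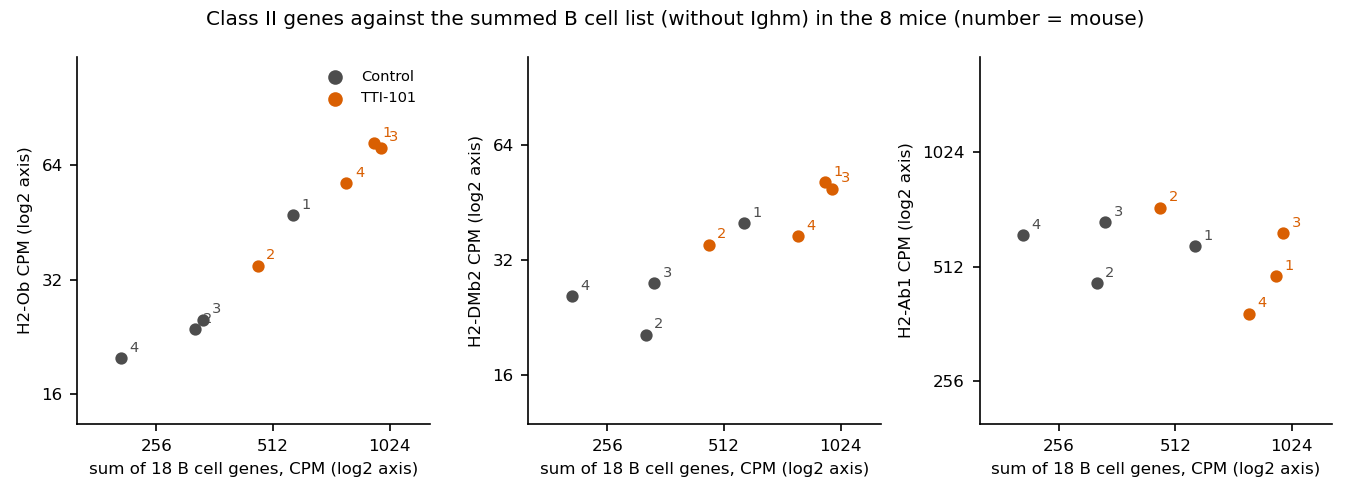
CPM of H2-Ob, H2-DMb2 and H2-Ab1 (y axes, log2) against the summed CPM of 18 B cell genes without Ighm (x axes, log2), with 1 numbered point per control (grey) and TTI-101 (orange) mouse. Treated mice 1, 3 and 4 (793 to 972 CPM) lie to the right of every control (207 to 576 CPM), and treated mouse 2 (468 CPM) lies among the controls on the x axis and below the other treated mice for H2-Ob and above them for H2-Ab1.

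In the other marker lists few genes passed the unadjusted threshold, at which 3.02% of all genes were higher and 3.58% lower by edgeR. Of 15 dendritic cell genes, 1 was higher by edgeR (Ccr7, 1.21 on the log2 scale, unadjusted p = 0.00839). In the same fit 2 were lower (Xcr1, -0.80, edgeR unadjusted p = 0.0156, and Itgae, -0.53, unadjusted p = 0.0365). The 15 genes had a median of -0.00 and summed levels of 448 to 572 CPM in control and 446 to 550 CPM in treated lungs. Cadm1, the highest of the 15, alone had a mean of 187 CPM in each group, with a log2 fold change of -0.0004. None of the 12 alveolar macrophage genes, 10 genes of interstitial macrophages and monocytes, 9 type 2 cell genes, 5 type 1 cell genes and 9 T cell genes passed an unadjusted p of 0.05 by edgeR. All 9 type 2 cell genes had values below 0 (median -0.40) and all 9 T cell genes values above 0 (median 0.75). By DESeq2, 3 of the T cell genes were higher at an unadjusted p under 0.05, and 1 type 2 cell gene (Lamp3) and 1 gene of interstitial macrophages and monocytes (Ms4a7) were lower. Of the 31769 genes DESeq2 tested, 2.63% were higher at that threshold, and 1689 passed it in either direction. The alveolar macrophage gene Krt79, at 8.76 ± 4.74 CPM in control and 15.7 ± 3.66 CPM in treated lungs (SD, n = 4), had all 4 treated mice above every control (edgeR unadjusted p = 0.0966), as 1.53% of all genes did. The summed type 2 cell level was 42682 to 75986 CPM in control, highest in mouse 4, and 33301 to 60713 CPM in treated lungs, highest in mouse 2. The summed T cell level was 32.1 to 119 CPM in control and 62.6 to 130 CPM in treated lungs, overlapping. Of 6 genes of lymph node stroma and high endothelial venules, 2 were tested (Cxcl13 and Chst4). Glycam1 and Madcam1 had 4 and 2 counts in all 8 libraries together, and Ccl21a (2040 counts) and Ccl19 (18 counts) were not tested because each symbol has 2 rows in the count table. Of 5 thymus genes 1 was tested (Cd1d1, log2 fold change 0.76, edgeR unadjusted p = 0.0608, DESeq2 unadjusted p = 0.0330). Ptcra had 2, Rag2 8, Rag1 24 and Dntt 34 counts in all libraries. Within groups, the mean level of the B cell list had an r of 0.94 with H2-Ob, 0.83 with H2-Oa and 0.70 with H2-DMb2, but of -0.31 with H2-Ab1, -0.14 with Cd74 and -0.36 with H2-DMb1. The T cell list had an r of 0.95 with H2-Ob, 0.80 with H2-Oa and 0.72 with H2-DMb2, and the alveolar macrophage list one of 0.77, 0.80 and 0.62, so that these lists cannot be told apart as companions of H2-Ob in 8 lungs. The genes of interstitial macrophages and monocytes had an r of 0.71 with H2-Ab1, 0.73 with Cd74 and 0.82 with H2-DMa, and the type 2 cell genes one of 0.80 with H2-DMb1 and 0.57 with H2-Aa. For the dendritic cell genes r was 0.22 with H2-Ab1, 0.40 with Cd74, 0.72 with H2-DMa and 0.42 with H2-Ob. The part of these cell types in the class II values was not tested.

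Among 13989 genes with 50 or more counts on average, those most like H2-Ab1 over the 8 mice, with group means taken out, were Rnf135 (r = 0.99), Batf3 (0.98), Ufc1 (0.98), Zkscan17 (0.98) and Ccar2 (0.98). Batf3 encodes a transcription factor of cross-presenting dendritic cells and is itself among the 15 dendritic cell genes listed above. The mean level of those 15 genes had an r of 0.22 with H2-Ab1. The part of dendritic cells in this likeness was not tested. Those most like H2-Ob were Elk3 (r = 1.00), Ighd (0.99), Rab37 (0.99), Actr10 (0.99) and Rdh11 (0.99). Ighd, the heavy chain of IgD on naive B cells, had a log2 fold change of 1.15 (edgeR unadjusted p = 0.0148), while the other 4 ranged from 0.12 for Actr10 to 0.36 for Elk3. Without the 2 mice farthest from the median the r of Elk3 was 0.99 and that of Rnf135 0.99. Each is among the highest of 13989 coefficients over 8 mice and is given as a description.

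The rest of the pathway was read from 38 further genes, of which 37 were tested. At an unadjusted p under 0.05 by edgeR, 1 of the 37 was higher and 0 were lower, where 3.02% of all genes were higher and 3.58% lower. None passed an adjusted p of 0.05. Their median log2 fold change was 0.10, with 23 genes above 0, where 50.6% of all genes tested were above 0. Without control mouse 1 or TTI-101 mouse 2 the number past the threshold was 6 of 37 (16.2%), where 13.7% and 14.2% of all genes passed, and without control mouse 2 or TTI-101 mouse 1 it was 2 (5.41%), where 6.51% and 4.08% of all genes passed. The gene past the unadjusted threshold was Irf4, a transcription factor of activated lymphocytes and dendritic cells, at 6.35 ± 2.05 CPM in control and 11.5 ± 2.69 CPM in treated lungs (SD, n = 4), a log2 fold change of 0.85 (SE 0.27, edgeR unadjusted p = 0.0110, adjusted p = 0.657). Among the 18 genes of class II transcription and interferon-gamma signalling, which include Rfx5 and Nfya, 14 had values above 0 with a median of 0.20. Next by p-value came Ifngr1, a chain of the interferon-gamma receptor (log2 fold change 0.37, edgeR unadjusted p = 0.0713), and Cd40, the costimulatory receptor of B cells and dendritic cells (0.54, unadjusted p = 0.0720). Spi1, which encodes the myeloid and B cell factor PU.1 (0.53, edgeR unadjusted p = 0.0763), followed. Ctsh, a lysosomal protease that type 2 cells also make, was at 673 ± 185 CPM in control and 472 ± 193 CPM in treated lungs (SD, n = 4), a log2 fold change of -0.51 (edgeR unadjusted p = 0.101). After it came Irf8, which acts in dendritic cells and B cells (0.33, edgeR unadjusted p = 0.110). Of the 9 genes that process antigen for class II, 3 had values above 0, with a median of -0.08. H2-Eb2, a further beta chain gene of the region, was at 3.60 ± 2.45 CPM in control and 5.80 ± 1.92 CPM in treated lungs (SD, n = 4), with a log2 fold change of 0.68 that did not pass (edgeR unadjusted p = 0.163).

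Since both groups held 2 mice with high and 2 with low Xist, the differences in mean log2 CPM were also taken within each kind, with 2 against 2 mice and no test. H2-Ob was higher in treated lungs by 0.59 among mice with high and by 1.51 among mice with low Xist. H2-DMb2 was higher by 0.57 and 0.67, and H2-Oa by 0.24 and 0.97. H2-Aa, H2-Ab1, H2-Eb1, Cd74 and H2-DMb1 changed sign. Among mice with high Xist their values were 0.12, 0.20, 0.26, 0.08 and 0.01. Among mice with low Xist they were -0.40, -0.39, -0.21, -0.34 and -0.51. Whether these differences depend on the kind of mouse was not tested.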

How the data were processed

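The authors deposited whole-number counts per Ensembl gene for 8 whole-lung libraries, without normalization, from poly(A) RNA sequenced with paired ends and processed by the sequencing provider. The submitters' processing notes name STAR, DESeq2 and mm10. Versions, the counting tool and its strand setting were not given in the sources used here. Every column was mapped to a sample by its name.

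Counts were modelled with edgeR 4.0.16 under R 4.3.3 (filterByExpr with a minimum count of 10, TMM, robust quasi-likelihood F-test, Benjamini-Hochberg adjustment), DESeq2 1.42.0 and limma 3.58.1. CPM follow TMM, log2 CPM use a prior count of 2, and CPM per kb use the deposited gene length. Single genes were also compared by two-sided exact permutation over 70 assignments. The fits were tested on simulated data. Groups came from the treatment label, and nothing else says that mice were independent of litter or batch. The class II genes, marker lists and tests were chosen with earlier results of these data known. Named were all 10 class II genes, the other pathway genes with an unadjusted p under 0.05 or the smallest p up to 6, a few markers set by name with the B cell markers whose groups did not overlap, and the 5 genes most like H2-Ab1 and H2-Ob. Some genes of the lists are not reported here by name. Ccr7, Xcr1, Itgae, Cadm1, Krt79, Lamp3, Ms4a7, Cd1d1, Dntt and H2-Eb2 were named after their values were seen. Alternatives were other tools, scalings and filters, the replicate number as a block, a covariate for Xist, division by Ptprc, a smaller prior count (0.5) and omission of each library in turn. Promoter sequences are RefSeq's, on GRCm38.p6. Precision is limited by 4 mice per group and, for H2-Oa, by 58 to 226 counts per library.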

Additional observations from a re-analysis of the deposited data

How the results depend on the processing

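No class II gene passed an adjusted p of 0.05 in any fit. H2-Ob stayed higher with an unadjusted p under 0.05 under every tool, scaling to library size, filter, covariate and library left out. Over all genes, 4 passed an adjusted p of 0.05 by DESeq2, 1 with Xist as a covariate, and 0 to 1 with a library left out (1 without control mouse 1 or TTI-101 mouse 3). At an unadjusted p under 0.05 edgeR counted 1132 genes, 1849 without a filter and from 422 (without TTI-101 mouse 3) to 2498 (without TTI-101 mouse 2) with a library left out. This count was 531 without control mouse 4, 711 without TTI-101 mouse 1 and 2393 without control mouse 1. Of the 10 class II genes, 2 were higher at that threshold, and 1 to 3 with a library left out (1 without control mouse 2, TTI-101 mouse 1 or TTI-101 mouse 3). With a library left out, 1.03% to 7.15% of all genes were higher. Of the other pathway genes, 1 passed, 2 without a filter, and 1 to 6 with a library left out.

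With the replicate number as a block, 3 class II genes were higher (H2-Ob 1.05, H2-DMb2 0.62 and H2-Oa 0.61, edgeR, unadjusted p = 0.00182, 0.00264 and 0.0433), and 3 other pathway genes passed. Of all genes, 1298 passed in that fit. The correlations of same-numbered mice were 0.39, 0.08, 0.16 and 0.07, and those of mice with unlike numbers ran from -0.42 to 0.17. Mouse 1 had the most counts in each group (26873509 and 25920509), and Xist was high in mice 1 and 2 of both. The labels name no pairing, so the main fits left the number out. Whether same-numbered mice share a litter or batch was not tested.

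Signs reversed for values near 0 and for the division by Ptprc. H2-DMa was 0.012 with library totals and -0.11 to 0.090 with a library left out (0.03 without control mouse 1, 0.03 without TTI-101 mouse 1, 0.06 without control mouse 3). H2-Eb1 was -0.063 to 0.20 with a library left out (-0.04 without control mouse 2, -0.063 without TTI-101 mouse 2) and -0.51 relative to Ptprc. Ciita was -0.0052 without control mouse 2, up to 0.30 with another library left out, and -0.35 relative to Ptprc. H2-Ab1 was 0.0052 without control mouse 3, 0.074 without TTI-101 mouse 4 and -0.22 at the lowest. Cd74 was 0.021 without TTI-101 mouse 4 and -0.24 at the lowest. The log2 fold changes with a library left out were 0.89 to 1.37 for H2-Ob, 0.47 to 0.81 for H2-DMb2, 0.36 to 0.81 for H2-Oa, -0.25 to -0.02 for H2-Aa and -0.38 to -0.12 for H2-DMb1. The log2 difference of H2-Ob and H2-DMb2 against the classical chains was 0.91 with a prior count of 0.5 and 0.78 to 1.18 with a library left out. The causes were not tested.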
